A study of Mus musculus with 6 samples.

Results

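Regional patterning factors were examined in the glial tumor nuclei of the Foxr2 p53LOF mouse brain tumor, and in other glia and neurons sampled alongside. The 9 genes were taken by symbol out of 32298 genes counted: Six3, its antisense RNA Six3os1, Dbx2, Otx1, Otx2, Irx2, Irx5, Zic1 and Lhx2. The question was which part of the brain each class of nuclei reflected through these genes. Each sample was brain tissue of a C57BL/6J mouse, profiled by 10x Multiome, which reads the RNA (as unique molecular identifiers, UMIs) and the open chromatin (as ATAC fragments) of the same nucleus. In both genotypes plasmids were electroporated in mid-gestation into progenitors of the ganglionic eminences, the ventral forebrain zones, and integrated by piggyBac transposition. Foxr2 alone carried Foxr2 with a V5 tag and GFP under the CAG promoter, which is active in many cell types. Foxr2 p53LOF carried the same plus Cas9 and a guide against Trp53. Per the study, a vector with Akaluc luciferase and GFP was delivered too, so a GFP UMI need not come from the Foxr2 vector. The tissue was frozen, and the labels give neither the age of the mice nor the part of the brain dissected. Counts from 1 library of each genotype (1 tissue sample each) were analysed, so no test between groups was possible and genotype, library and sampled tissue cannot be told apart. A second Foxr2 alone library entered only through its list of peaks, and its counts were not analysed here.

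Patterning transcription factors divide the early neural tube into territories, and many stay on in the neurons and glia born there, so that they carry a record of origin. Six3 is a homeodomain factor of the anterior forebrain and eye that is also used in striatal neurons, and Six3os1 is a noncoding RNA read from the opposite strand beside it. Irx2 and Irx5 belong to the Iroquois family, whose domain borders that of Six3 from behind. Otx1 and Otx2 act in the forebrain and midbrain, Dbx2 marks progenitors at middle levels between the dorsal and ventral sides of the neural tube, Zic1 is a zinc-finger factor of the dorsal neural tube, septum and cerebellum, and Lhx2 is a LIM-homeodomain factor of the cortex, hippocampus and eye.

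The promoters of 6 members are shown because they lay under peaks of open chromatin whose counts separated tumor glia from other classes, or, for Otx2, because a peak was called there although tumor glia had next to no Otx2 RNA (the other 3 Otx2 promoters in the table had no peak over them). RefSeq promoters (GRCm38.p6, the same coordinates as mm10) span 250 bases before to 50 after a transcript start, and the table held 11 promoters for 7 of the 9 members. The Lhx2 promoters, also under peaks with higher counts in tumor than in host glia, are not printed. Capitals mark 5 short motifs searched on both strands: GGGCGG (GC box, in 35.7% of 32851 promoters), CCAAT (37.4%), TATAAA (13.6%), TAATTA (homeodomain core, 5.29%) and TAATCC (the core bound by Otx-type homeodomains, 7.06%). A motif on the other strand appears in capitals as its reverse complement.
Six3 (chr17:85620584-85620883, plus strand): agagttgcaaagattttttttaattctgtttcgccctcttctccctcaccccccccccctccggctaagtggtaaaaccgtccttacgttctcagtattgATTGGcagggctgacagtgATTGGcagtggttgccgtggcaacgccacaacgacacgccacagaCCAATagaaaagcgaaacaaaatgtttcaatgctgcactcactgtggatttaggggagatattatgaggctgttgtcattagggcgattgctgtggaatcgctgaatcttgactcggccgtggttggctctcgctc
Six3os1 (chr17:85618347-85618646, minus strand): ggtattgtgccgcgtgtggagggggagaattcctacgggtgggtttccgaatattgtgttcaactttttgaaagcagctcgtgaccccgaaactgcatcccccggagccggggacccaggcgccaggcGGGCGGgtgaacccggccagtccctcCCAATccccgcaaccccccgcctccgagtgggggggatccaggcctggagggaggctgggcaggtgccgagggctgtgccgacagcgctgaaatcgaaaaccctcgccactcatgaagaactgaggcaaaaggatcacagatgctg
Dbx2 (chr15:95654722-95655021, minus strand): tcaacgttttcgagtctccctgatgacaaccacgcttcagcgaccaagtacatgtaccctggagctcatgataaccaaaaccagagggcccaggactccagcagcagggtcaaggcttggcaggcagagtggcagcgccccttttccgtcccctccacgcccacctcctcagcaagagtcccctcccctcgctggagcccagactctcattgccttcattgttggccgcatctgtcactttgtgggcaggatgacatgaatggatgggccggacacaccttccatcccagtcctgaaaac
Zic1 (chr9:91365719-91366018, minus strand): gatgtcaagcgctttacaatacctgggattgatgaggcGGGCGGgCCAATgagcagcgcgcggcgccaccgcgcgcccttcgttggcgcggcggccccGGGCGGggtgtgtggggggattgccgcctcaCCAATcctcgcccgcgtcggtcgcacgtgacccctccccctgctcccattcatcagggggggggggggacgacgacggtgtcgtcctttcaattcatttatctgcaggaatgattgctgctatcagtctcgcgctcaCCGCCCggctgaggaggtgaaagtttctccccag
Irx2 (chr13:72628570-72628869, plus strand): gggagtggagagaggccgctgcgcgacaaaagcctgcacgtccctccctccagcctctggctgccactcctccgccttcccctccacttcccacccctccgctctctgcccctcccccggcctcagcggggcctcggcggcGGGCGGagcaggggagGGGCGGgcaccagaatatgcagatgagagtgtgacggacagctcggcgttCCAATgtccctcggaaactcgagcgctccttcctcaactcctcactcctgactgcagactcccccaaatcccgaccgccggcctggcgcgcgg
Otx2 (chr14:48665060-48665359, minus strand): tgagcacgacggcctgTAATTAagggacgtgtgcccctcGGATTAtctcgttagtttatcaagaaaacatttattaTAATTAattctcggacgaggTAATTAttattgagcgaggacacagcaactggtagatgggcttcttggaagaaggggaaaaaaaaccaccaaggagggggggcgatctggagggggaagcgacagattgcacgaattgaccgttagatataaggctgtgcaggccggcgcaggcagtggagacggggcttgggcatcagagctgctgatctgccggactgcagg
The Six3 window held 3 CCAAT boxes and no GC box, the Zic1 window 3 GC boxes and 2 CCAAT boxes, and the Irx2 window 2 GC boxes and 1 CCAAT box. None of the 5 motifs was found in the Dbx2 window. The Otx2 window held 3 TAATTA cores and 1 TAATCC core, printed as GGATTA. These matches describe the letters only. Six3 (chr17:85613608-85629302, plus strand) overlaps Six3os1 (chr17:85600651-85618398, minus strand). Read assignment in this kit uses the strand, but reads in the overlap may still be misassigned.

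Tumor glia were nuclei of glia-like clusters with at least 2 UMIs of Hmga2, a chromatin protein of fetal tissue, and numbered 1327 in Foxr2 p53LOF and 0 in Foxr2 alone. They comprised 762 astrocyte-like nuclei, 559 nuclei like committed oligodendrocyte precursors (COP-like) and 6 others. Host glia had 0 Hmga2 UMIs and lay in glia-like clusters in which under 5% of nuclei reached the Hmga2 cutoff; there were 1598 in Foxr2 p53LOF (1444 oligodendrocyte-like, 87 precursor-like or OPC-like, 67 astrocyte-like) and 3617 in Foxr2 alone (3021, 168 and 428). Neurons numbered 2262 and 4250, and immune-like nuclei, used as the measure of free RNA, 1664 and 425. A GFP UMI was found in 93.6% of tumor glia, 37.4% of host glia, 51.9% of neurons and 42.4% of immune-like nuclei of Foxr2 p53LOF, classes of unequal depth, and in 56.7% of host astrocyte-like nuclei. Foxr2 stood at 80.3 UMIs per 1000000 UMIs of the class (CPM) in tumor glia and 29.7 CPM in host glia. Trp53 stood at 54.5 and 32.4 CPM, and counts over its whole transcript do not show whether the guide cut it. In Foxr2 alone, 18.7% of host astrocyte-like, 4.37% of host oligodendrocyte-like and 2.59% of immune-like nuclei had a GFP UMI. Foxr2 there was at 9.80 CPM in host glia, with 0 UMIs in immune-like nuclei. Having 0 Hmga2 UMIs thus did not exclude nuclei with a GFP UMI. The study called malignant cells from inferred copy number. It reported neuron-like and glial-like malignant cells in all its models, Foxr2 alone included. Those calls were not used here, so the neurons and host glia may hold nuclei that the study called malignant. Median depth was 9432 UMIs in tumor glia, 2503 in host glia and 9992.5 in neurons of Foxr2 p53LOF, and 1262 and 7304 in host glia and neurons of Foxr2 alone. The libraries held 96929539 and 59719847 UMIs and shared 140 of their 10379 and 10096 barcodes. Astrocyte markers were lower in the astrocyte-like tumor nuclei (8 of 8 detected, 2825 CPM summed) than in host astrocyte-like nuclei (8 of 8, 11401 CPM), and COP-like tumor nuclei had 8 of 8 COP markers (2139.9 CPM) along with oligodendrocyte markers (2897 CPM). Host OPC-like nuclei had 2443.5 CPM of the COP markers. OPC markers summed to 1160 CPM in astrocyte-like and 1423 CPM in COP-like tumor nuclei. They summed to 597 CPM in host astrocyte-like and 13103 CPM in host OPC-like nuclei.

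Six3, Six3os1, Dbx2 and Zic1 were higher in tumor glia than in the pooled host glia of the same library. Six3 stood at 65.5 CPM in tumor glia (95% interval 61.4 to 69.8, 967 UMIs), 4.34 CPM in host glia (2.61 to 6.78, 19 UMIs), 7.82 CPM in neurons (6.77 to 8.99) and 8.48 CPM in immune-like nuclei (6.25 to 11.2). All intervals here cover counting error only. Six3 in host glia thus lay no higher than in immune-like nuclei, the level read as background, while tumor glia lay above it without overlap of the intervals. Six3os1 stood at 139.7 CPM in tumor glia (134 to 146), 5.25 CPM in host glia, 5.73 CPM in neurons and 6.01 CPM in immune-like nuclei, so that of these 4 classes tumor glia again stood above the others. Immune-like nuclei without an Hmga2 UMI, as required of host glia, had 7.63 CPM of Six3 (5.40 to 10.5) and 3.42 CPM of Six3os1 (1.99 to 5.47), with intervals overlapping those of host glia. Dbx2 stood at 137 CPM in tumor glia (131 to 143), 13.5 CPM in host glia (10.3 to 17.4), 2.81 CPM in neurons and 7.95 CPM in immune-like nuclei. Zic1 stood at 28.9 CPM in tumor glia (26.2 to 31.7), 1.37 CPM in host glia, 7.39 CPM in neurons (6.37 to 8.53) and 2.30 CPM in immune-like nuclei.

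**Figure D1:**
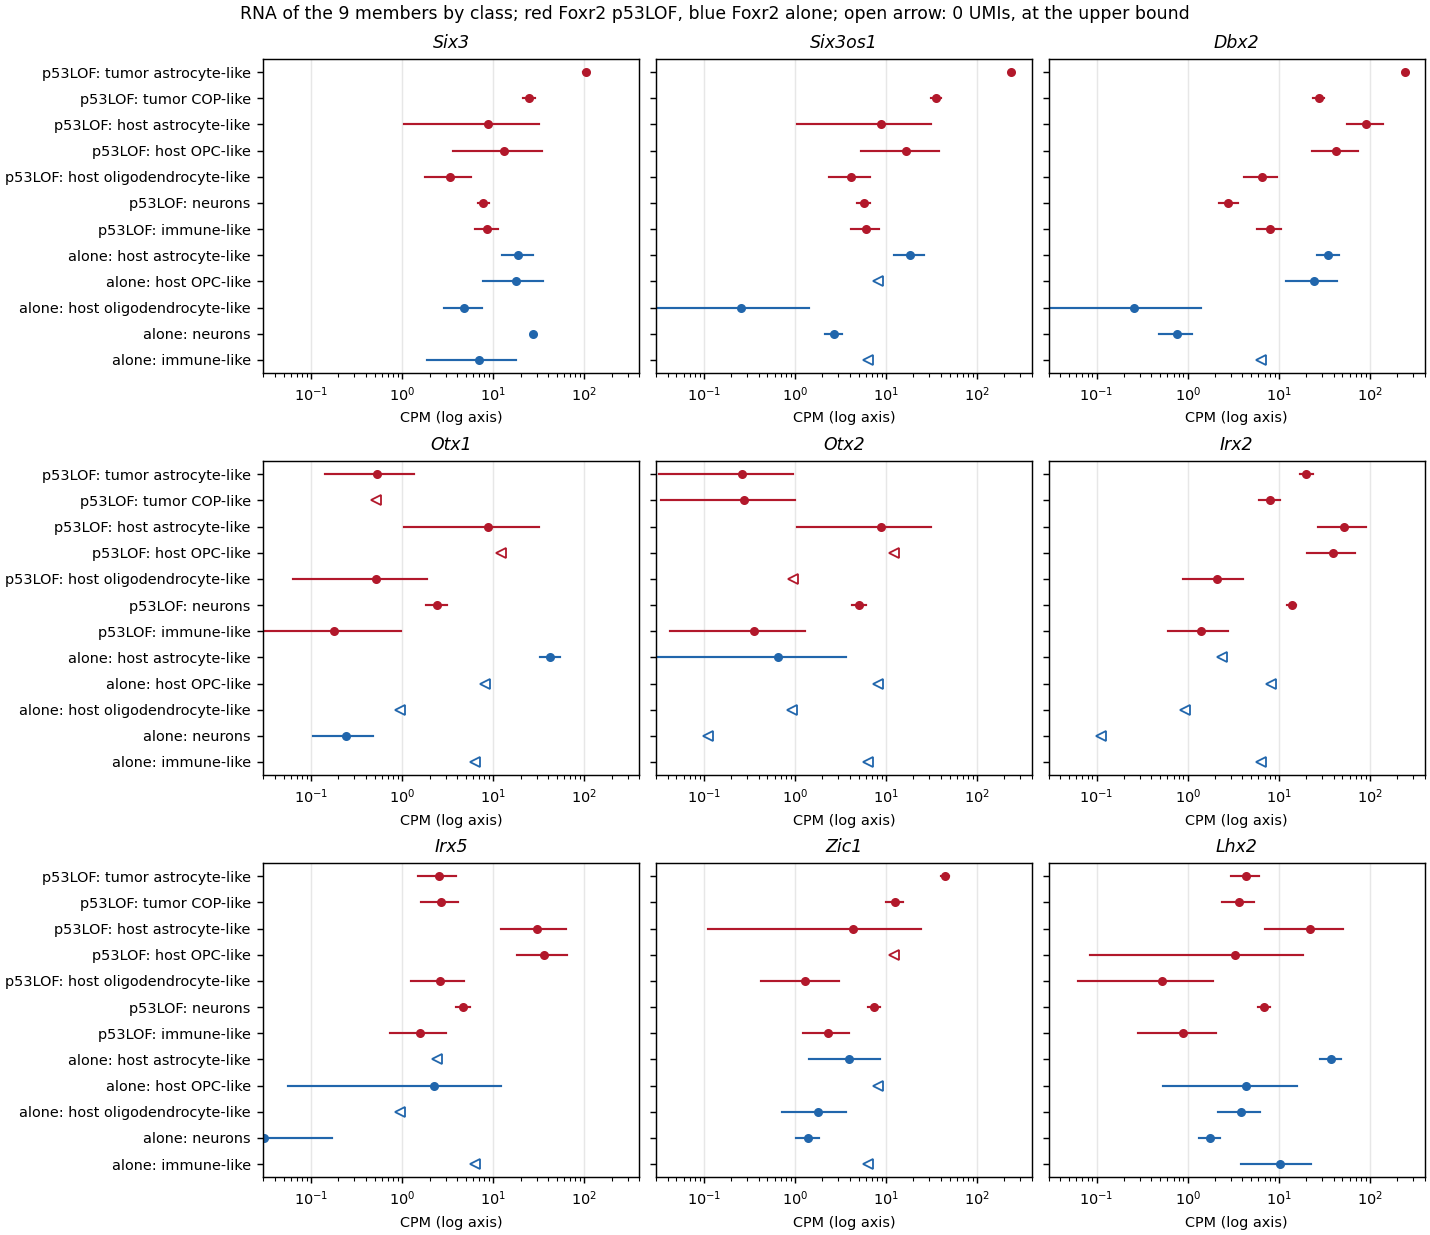
RNA of the 9 members (CPM, log scale, 95% counting intervals) in classes of nuclei, with Foxr2 p53LOF in red and Foxr2 alone in blue; an open arrow marks a class with 0 UMIs at its upper limit. Six3, Six3os1, Dbx2 and Zic1 are highest in the astrocyte-like tumor nuclei (104.3, 239, 241 and 44.4 CPM), and Irx2 has no UMI in any class of Foxr2 alone.

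As log2 ratios of tumor glia over host glia, Six3os1 was at 4.73 (4.14 to 5.39), Zic1 at 4.40 (3.26 to 5.85), Six3 at 3.92 (3.26 to 4.65) and Dbx2 at 3.34 (2.97 to 3.74). Of the 6 members with at least 5 CPM in either class, 4 were higher by 2-fold or more and 1 (Irx5) was lower, beside 26.9% of 12367 genes higher and 12.2% lower at the same cutoffs. With finer clusters 0 were lower. The median over the 6 members counted was 3.63 and over the 12367 genes 0.36. The members were chosen with earlier results of these data known, so these values describe them and test nothing. The shares of nuclei were also compared at equal depth. When every nucleus was thinned to 1000 UMIs, leaving out 1, 13 and 32 shallower nuclei of tumor glia, host glia and immune-like nuclei, a Six3 UMI remained in 7.32% of tumor glia, 0.505% of host glia and 0.797% of immune-like nuclei, against 36.5%, 1.13% and 2.64% before thinning at median depths of 9432, 2503 and 2586.5 UMIs. The thinned shares were 12.2%, 0.694% and 0.368% for Six3os1, 11.01%, 1.26% and 0.858% for Dbx2, and 2.64%, 0.0631% and 0.123% for Zic1. Tumor glia held the highest share for each of these 4 genes. The host side of the ratio depended on the nuclei admitted: with any glia-like nucleus without an Hmga2 UMI as host, Six3 in host glia was 24.1 CPM and its log2 ratio 1.44, and Dbx2 was 38.0 CPM with a ratio of 1.85. The 645 nuclei without an Hmga2 UMI inside the tumor clusters, which that definition adds, carried 39.7 CPM of Six3, 74.0 CPM of Six3os1, 57.3 CPM of Dbx2 and 19.0 CPM of Zic1, and 85.1% of them had a GFP UMI.

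The Iroquois genes behaved differently from these 4 genes. Irx2 stood at 14.2 CPM in tumor glia (12.3 to 16.2), 7.31 CPM in host glia (5.0 to 10.3), 13.8 CPM in neurons (12.4 to 15.4) and 1.41 CPM in immune-like nuclei. Tumor glia and neurons had overlapping intervals for Irx2, with a log2 ratio of 0.03 (-0.22 to 0.29). Irx5 stood at 2.57 CPM in tumor glia (1.82 to 3.53), 6.40 CPM in host glia (4.25 to 9.24), 4.70 CPM in neurons (3.89 to 5.63) and 1.59 CPM in immune-like nuclei. Its log2 ratio of tumor over pooled host glia was -1.31 (-2.06 to -0.55), where Irx2 was at 0.95 (0.41 to 1.54). That pool was mostly oligodendrocyte-like (1444 of 1598), a class with 2.08 CPM of Irx2 and 2.60 CPM of Irx5. Both genes were lower in astrocyte-like tumor than in host astrocyte-like nuclei, and in COP-like tumor than in host OPC-like nuclei, as given below. Otx1 and Otx2 RNA was nearly absent from tumor glia, with 4 UMIs each, or 0.271 CPM (0.0738 to 0.694), in 14764221 UMIs. Host glia held 4 and 2 UMIs, and neurons 61 UMIs of Otx1 (2.41 CPM) and 129 of Otx2 (5.10 CPM). Lhx2 stood at 3.996 CPM in tumor glia (3.04 to 5.15), 1.83 CPM in host glia (0.789 to 3.60) and 6.87 CPM in neurons (5.89 to 7.98), the highest of these 3 classes. These 3 genes were under the 5 CPM minimum in both tumor and host glia.

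Within tumor glia, the patterning factors were concentrated in the astrocyte-like nuclei. Six3 stood at 104.3 CPM in the 762 astrocyte-like nuclei (97.1 to 112) and 24.7 CPM in the 559 COP-like nuclei (21.2 to 28.6). Six3os1 stood at 239 and 35.3 CPM, Dbx2 at 241 and 27.5 CPM, and Zic1 at 44.4 and 12.5 CPM. Irx2 had the same direction, with 20.1 CPM (17.0 to 23.5) and 7.94 CPM (6.02 to 10.3). All 5 members with at least 5 CPM in either class were higher in the astrocyte-like nuclei by 2-fold or more, beside 8.18% of 12299 genes, and none was lower, beside 10.8%. Their log2 ratios ran from 1.34 for Irx2 (0.89 to 1.80) and 1.82 for Zic1 to 3.13 for Dbx2 (2.92 to 3.35). Irx5 (2.51 and 2.65 CPM) and Lhx2 (4.36 and 3.62 CPM) had overlapping intervals in these classes. The COP-like nuclei were the deeper class, with a median of 11256 UMIs against 8582. They still lay above immune-like nuclei for Six3 (24.7 against 8.48 CPM), Six3os1, Dbx2 and Zic1, with no overlap of the intervals.

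Several members were found in the same nuclei. Of the 762 astrocyte-like tumor nuclei, 378 had a Six3 UMI, 465 a Six3os1 UMI, 414 a Dbx2 UMI, 240 a Zic1 UMI and 124 an Irx2 UMI. At least 1 member was seen in 665 and at least 2 in 510. Dbx2 was seen in 69.2% of nuclei with Six3os1 and in 31.0% of those without, and in 65.3% of nuclei with Six3 and 43.5% of those without. Six3os1 was seen in 70.6% of nuclei with Six3 and in 51.6% of the others, and Zic1 in 38.9% of nuclei with Dbx2 and in 22.7% of the others. Irx5 was seen in 19 of these nuclei, or 2.12% of nuclei with Six3 and 2.86% of the others. Otx1, Otx2 and Lhx2 were seen in 4, 2 and 29 of them. Irx5 and these genes were in too few nuclei to compare. Deeper nuclei show more of every gene, and the part of depth in these shares was not tested. Nuclei with a proliferation UMI (Mki67 or Top2a, 274 nuclei) carried 105 CPM of Six3 and the other 488 nuclei 104 CPM. Six3os1 was at 203 CPM with a proliferation UMI and 265 CPM without, and Dbx2 at 212 and 262 CPM, differences under 2-fold. The 44 astrocyte-like tumor nuclei without a GFP UMI carried 148 CPM of Six3 (106 to 199) and the 718 with one 103 CPM.

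**Figure D2:**
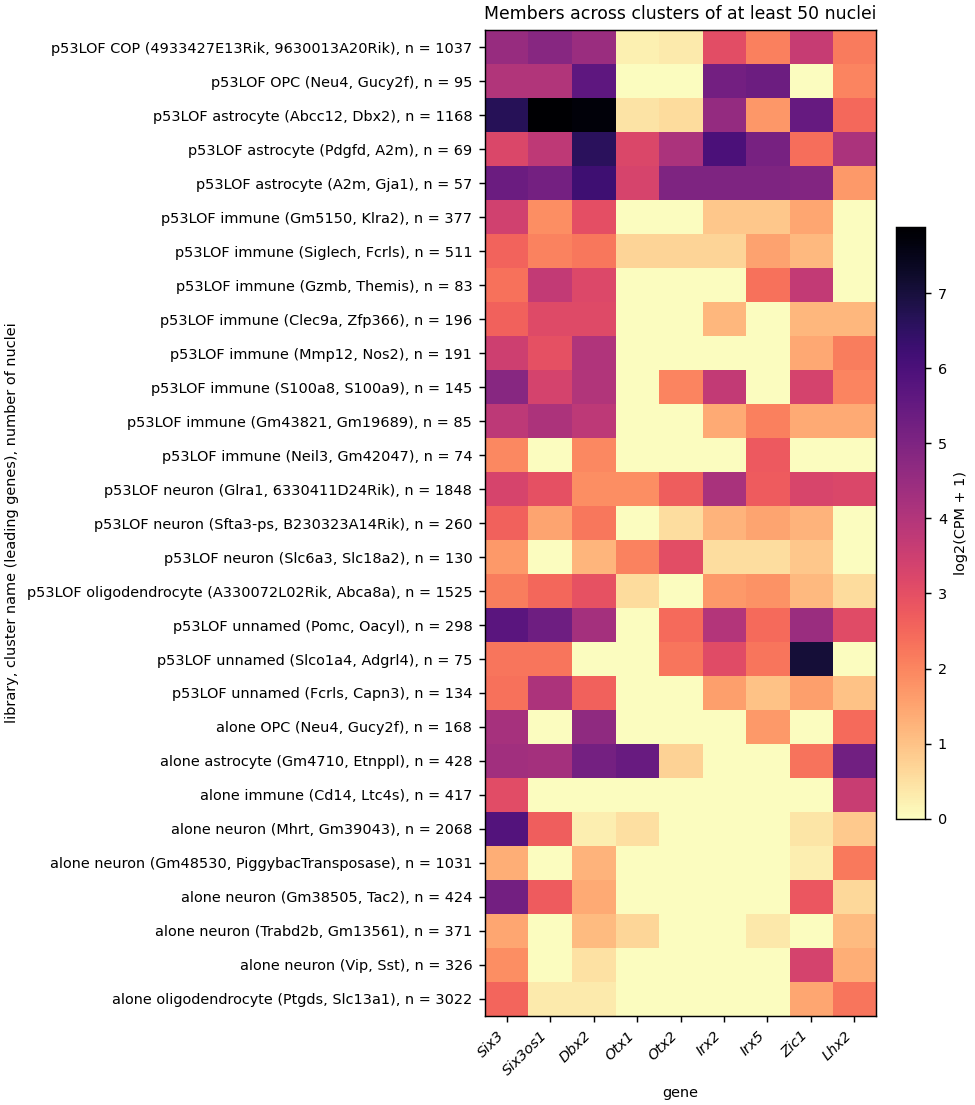
Heatmap of log2(CPM + 1) of the 9 members (columns) in every cluster of at least 50 nuclei in each library (rows), darker for higher values. Cluster 5, with 64.9% of its nuclei at 2 or more Hmga2 UMIs, holds 758 of the 762 astrocyte-like tumor nuclei and has the highest Six3, Six3os1 and Dbx2 of these clusters, while Otx2 is highest in cluster 27 (31.1 CPM).

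Cluster 27 was astrocyte-like and lay just above the 5% limit set for host clusters. It had 57 nuclei, all from Foxr2 p53LOF, of which 7.02% reached the Hmga2 cutoff and 93.0% had a GFP UMI. It carried 40.02 CPM of Six3 (23.7 to 63.2), 35.6 CPM of Six3os1, 73.4 CPM of Dbx2 and 28.9 CPM of Zic1. It also carried 31.1 CPM each of Irx2, Irx5 and Otx2, from 14 UMIs each (17.0 to 52.2), above the intervals of the astrocyte-like tumor nuclei for Irx5 and Otx2 and overlapping theirs for Irx2. The cluster was a part of a split cluster of mixed type, and besides 8 of 8 astrocyte markers, 8 of 9 immune and 7 of 8 oligodendrocyte markers were at least 2-fold above the lower quartile of the clusters. The part of other cell types in its members was not tested.

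Compared with the glia they resembled, the astrocyte-like tumor nuclei differed from host astrocyte-like nuclei in both directions. Host astrocyte-like nuclei of Foxr2 p53LOF (67 nuclei) had 2 UMIs of Six3 (8.72 CPM, 1.06 to 31.5), 2 of Six3os1, 1 of Zic1 and 21 of Dbx2 (91.6 CPM, 56.7 to 140.0). Dbx2 was therefore a gene of host astrocytes as well, at a log2 ratio of tumor over host of 1.40 (0.78 to 2.09), and was seen in 11.9% of host and 17.1% of tumor astrocyte-like nuclei at 1000 UMIs, with overlapping intervals. Six3 was at a log2 ratio of 3.58 (1.72 to 6.63), Six3os1 at 4.78 (2.92 to 7.82) and Zic1 at 3.35 (0.86 to 8.66). The Iroquois genes went the other way: host astrocyte-like nuclei had 52.3 CPM of Irx2 (27.0 to 91.4) and 30.5 CPM of Irx5 (12.3 to 62.9), at log2 ratios of -1.38 (-2.23 to -0.40) and -3.60 (-4.92 to -2.11). Lhx2 (5 host UMIs, -2.32) and Otx1 (2 host UMIs, -4.04, -6.85 to -0.58) also pointed to the host. Otx2 had 2 UMIs in each class (0.264 CPM in tumor and 8.72 CPM in host nuclei) and was not counted, since a gene needed more than 3 UMIs in at least 1 class. Of 8 members counted, 4 were higher and 4 lower in the tumor nuclei, beside 13.7% and 19.7% of 12366 genes.

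Against the 87 host OPC-like nuclei, the COP-like tumor nuclei were lower for Irx2 (39.8 CPM in host, log2 ratio -2.32, -3.24 to -1.29) and Irx5 (36.5 CPM, -3.78, -4.93 to -2.57). Six3os1 was the member called higher, at 1.09 with an interval that included 0 (-0.15 to 2.72). Six3 (0.90) and Dbx2 (-0.65) lay within 2-fold. Zic1 had 90 UMIs in the tumor nuclei and 0 in the host, 1.26-fold higher with a host count of 3. Its intervals overlapped, at 10.1 to 15.4 CPM in the tumor nuclei and up to 12.2 CPM in the host. The comparison thus had 1 member higher and 2 lower of 6 counted, beside 18.4% and 16.0% of 12728 genes. Irx2 and Irx5 were thus carried by the host astrocyte-like and OPC-like nuclei, while host oligodendrocyte-like nuclei stood at 2.08 and 2.60 CPM, with intervals overlapping those of immune-like nuclei. All these host values rest on 12 or fewer UMIs per Iroquois gene and class.

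**Figure D3:**
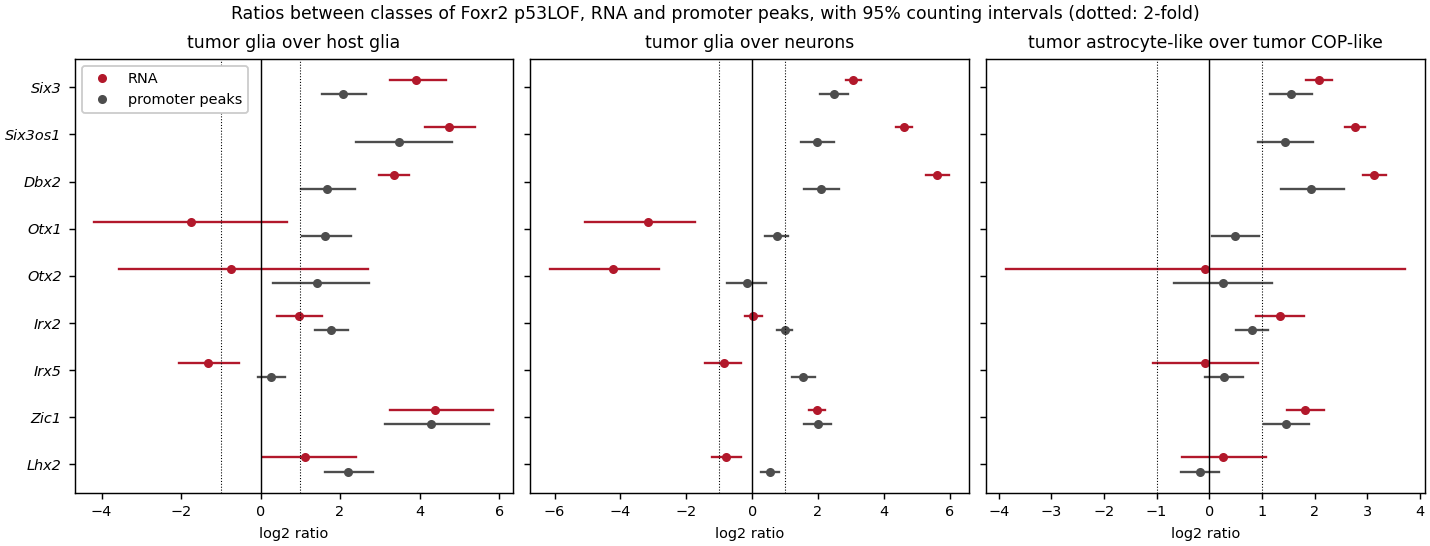
Log2 ratios with 95% counting intervals between classes of Foxr2 p53LOF, for RNA (red) and promoter peaks (grey); dotted lines mark 2-fold. Six3, Six3os1, Dbx2 and Zic1 lie to the right of 2-fold for RNA and promoter in every panel, while Otx1 and Otx2 RNA lie left of it over neurons (-3.15 and -4.23) with promoter ratios of 0.74 and -0.17; the Otx1 RNA point is missing in the right panel because COP-like nuclei had 0 UMIs.

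Neurons of the same library carried another set of members. Tumor glia over neurons gave log2 ratios of 5.61 for Dbx2 (5.27 to 5.97), 4.61 for Six3os1 (4.36 to 4.86), 3.07 for Six3 (2.84 to 3.29) and 1.97 for Zic1 (1.71 to 2.22), and of -4.23 for Otx2 (-6.13 to -2.84). Of 7 members counted, 4 were higher and 1 lower, beside 29.2% and 18.9% of 13037 genes; with doublets kept 0 were lower, and after thinning 2. Within the neurons, Otx2 was at 11.6 CPM in nuclei with UMIs of the GABA enzymes Gad1 or Gad2 (9.23 to 14.5, 605 nuclei) and 1.74 CPM in nuclei with the glutamate transporter Slc17a6 (1065 nuclei), and Otx1 at 6.55 and 0.695 CPM. Six3 followed the same split, at 19.5 CPM (16.3 to 23.1) and 2.26 CPM. Lhx2 had the reverse split, with 0.436 CPM in the Gad nuclei and 10.4 CPM (8.64 to 12.5) in the Slc17a6 nuclei. Zic1 was even between them, at 8.0 and 7.56 CPM. Thus the Six3 RNA of this library's neurons was mostly in GABA neurons, where it stayed below the 65.5 CPM of tumor glia, and Six3os1 had 14.98 CPM there.

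The same classes of Foxr2 alone had a different set of members. In host astrocyte-like nuclei of Foxr2 alone, Otx1 stood at 42.4 CPM (32.7 to 54.0, 65 UMIs), Lhx2 at 37.2 CPM (28.1 to 48.1), Dbx2 at 35.2 CPM (26.4 to 45.9), Six3 at 18.9 CPM (12.7 to 27.1) and Six3os1 at 18.3 CPM (12.1 to 26.4). Immune-like nuclei of that library had no UMI of Otx1, Dbx2 or Six3os1, 10.4 CPM of Lhx2 (3.81 to 22.6, 6 UMIs) and 6.92 CPM of Six3 (1.88 to 17.7, 4 UMIs), so that for Six3 the intervals overlapped. Irx2 had 0 UMIs in 5916641 UMIs of host glia and in 33067059 UMIs of neurons, which allows up to 0.507 and 0.0907 CPM at 3 UMIs (upper Poisson limits 0.623 and 0.112 CPM), and Irx5 had 1 UMI in each. Otx2 had 1 UMI in host glia and none in neurons. In neurons of Foxr2 alone, Six3 stood at 27.6 CPM (25.8 to 29.4, 911 UMIs), with 46.3 CPM in the Gad nuclei and 56.1 CPM in cluster 1, whose leading genes included Penk and Adora2a, markers of striatal projection neurons. A Six3 UMI remained in 2.62% of these neurons and 0.356% of the immune-like nuclei at 1000 UMIs (18 and 144 shallower nuclei left out), against 16.5% and 0.941% before thinning. Six3os1 did not follow Six3 there: these neurons had 88 UMIs of Six3os1 beside 911 of Six3, and tumor glia 2062 beside 967.

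Between libraries, host glia thus differed in the members they carried. Irx5 was higher in Foxr2 p53LOF by a log2 ratio of 5.24 (2.65 to 10.60, 28 UMIs against 1) and Irx2 at least 14.4-fold. Otx1 (-3.59, -5.51 to -2.16), Lhx2 (-2.78, -4.04 to -1.72) and Six3 (-1.12, -1.96 to -0.35) were lower, and Six3os1 (0.10) and Dbx2 (0.27) lay within 2-fold. These pools differed in make-up. Astrocyte-like nuclei held 229359 of 4378223 host glia UMIs in Foxr2 p53LOF and 1534201 of 5916641 in Foxr2 alone. The part of make-up in these ratios was not tested. Six3 in host glia of Foxr2 p53LOF lay no higher than in its immune-like nuclei. The direction for Six3 turned under other host definitions and after thinning (0.21, 0.60 and 1.33). Of 7 members counted, 2 were higher and 3 lower, beside 10.1% and 25.7% of 12328 genes. When host glia included all glia-like nuclei without an Hmga2 UMI 6 were higher, and 1 with finer clusters (resolution 1.0). The share of all genes was not computed under these alternatives. In the astrocyte-like host nuclei, Irx2 was at least 26.8-fold and Irx5 at least 15.6-fold higher in Foxr2 p53LOF, Dbx2 higher by 1.38 (0.58 to 2.13) and Otx1 lower at -2.28 (-5.36 to -0.37), or 3 higher and 1 lower of 7, beside 14.7% of 12683 genes in each direction. Lhx2 lay within 2-fold between these astrocyte-like classes, with overlapping intervals. In the OPC-like host nuclei, Irx2 was at least 5.99-fold and Six3os1 at least 2.496-fold higher and Irx5 was at a log2 ratio of 4.04 (1.26 to 9.47, 11 UMIs against 1), 3 of 5 counted and none lower, beside 9.38% and 18.1% of 11186 genes.

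Neurons differed between libraries as well. Irx2 was at least 152-fold and Otx2 at least 56.2-fold higher in neurons of Foxr2 p53LOF, and Zic1 (2.41, 1.94 to 2.91), Lhx2 (1.97, 1.53 to 2.43) and Six3os1 (1.11, 0.71 to 1.51) were also higher. Six3 was the member that was lower, at a log2 ratio of -1.82 (-2.05 to -1.59). These were 5 and 1 of 6 counted, beside 14.6% and 20.6% of 12654 genes. Relative to the astrocyte-like host nuclei of Foxr2 alone, the astrocyte-like tumor nuclei were higher for Six3os1 (3.71), Zic1 (3.51), Dbx2 (2.78), Six3 (2.46, 1.93 to 3.05) and Irx2 (at least 10.3-fold), and lower for Otx1 (-6.32, -8.24 to -4.90) and Lhx2 (-3.09, -3.76 to -2.45). That was 5 higher and 2 lower of 7, beside 23.1% and 31.0% of 13376 genes. Six3, Six3os1 and Zic1 therefore stood above the astrocyte-like host nuclei of both libraries, while Irx2 stood below those of 1 library and above those of the other. Of the astrocyte-like host nuclei of Foxr2 alone, 18.7% had a GFP UMI, so glia that carried a vector may be among them.

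Promoter peaks separated the classes in part as the RNA did. A peak within 1000 bases of a transcript start was taken as a promoter peak, and all 9 members had such a peak in Foxr2 p53LOF, as did 19029 of 32298 genes. In Foxr2 alone 5 members had it (Six3, Dbx2, Otx1, Zic1 and Lhx2), the same 5 as in the peak list of the second Foxr2 alone library, and Six3os1, Otx2, Irx2 and Irx5 had none; in Foxr2 alone 18674 genes had one. Within 2500 bases Six3os1 and Irx5 had peaks in both Foxr2 alone lists as well. Peaks were called over all nuclei of each library, with 112924, 135201 and 99112 peaks, so a missing peak is not a measure of closed chromatin. In tumor glia the Six3 promoter held 31.6 counts per 1000000 peak counts of the class (promoter CPM), host glia 7.53, neurons 5.70 and immune-like nuclei 4.11. The Zic1 promoter held 27.1 in tumor glia, 1.39 in host glia, 6.84 in neurons and 1.83 in immune-like nuclei. The Six3os1 promoter (18.0, 1.62, 4.62 and 1.10) and the Dbx2 promoter (16.9, 5.33, 3.99 and 1.19) were also highest in tumor glia of these 4 classes.

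**Figure D4:**
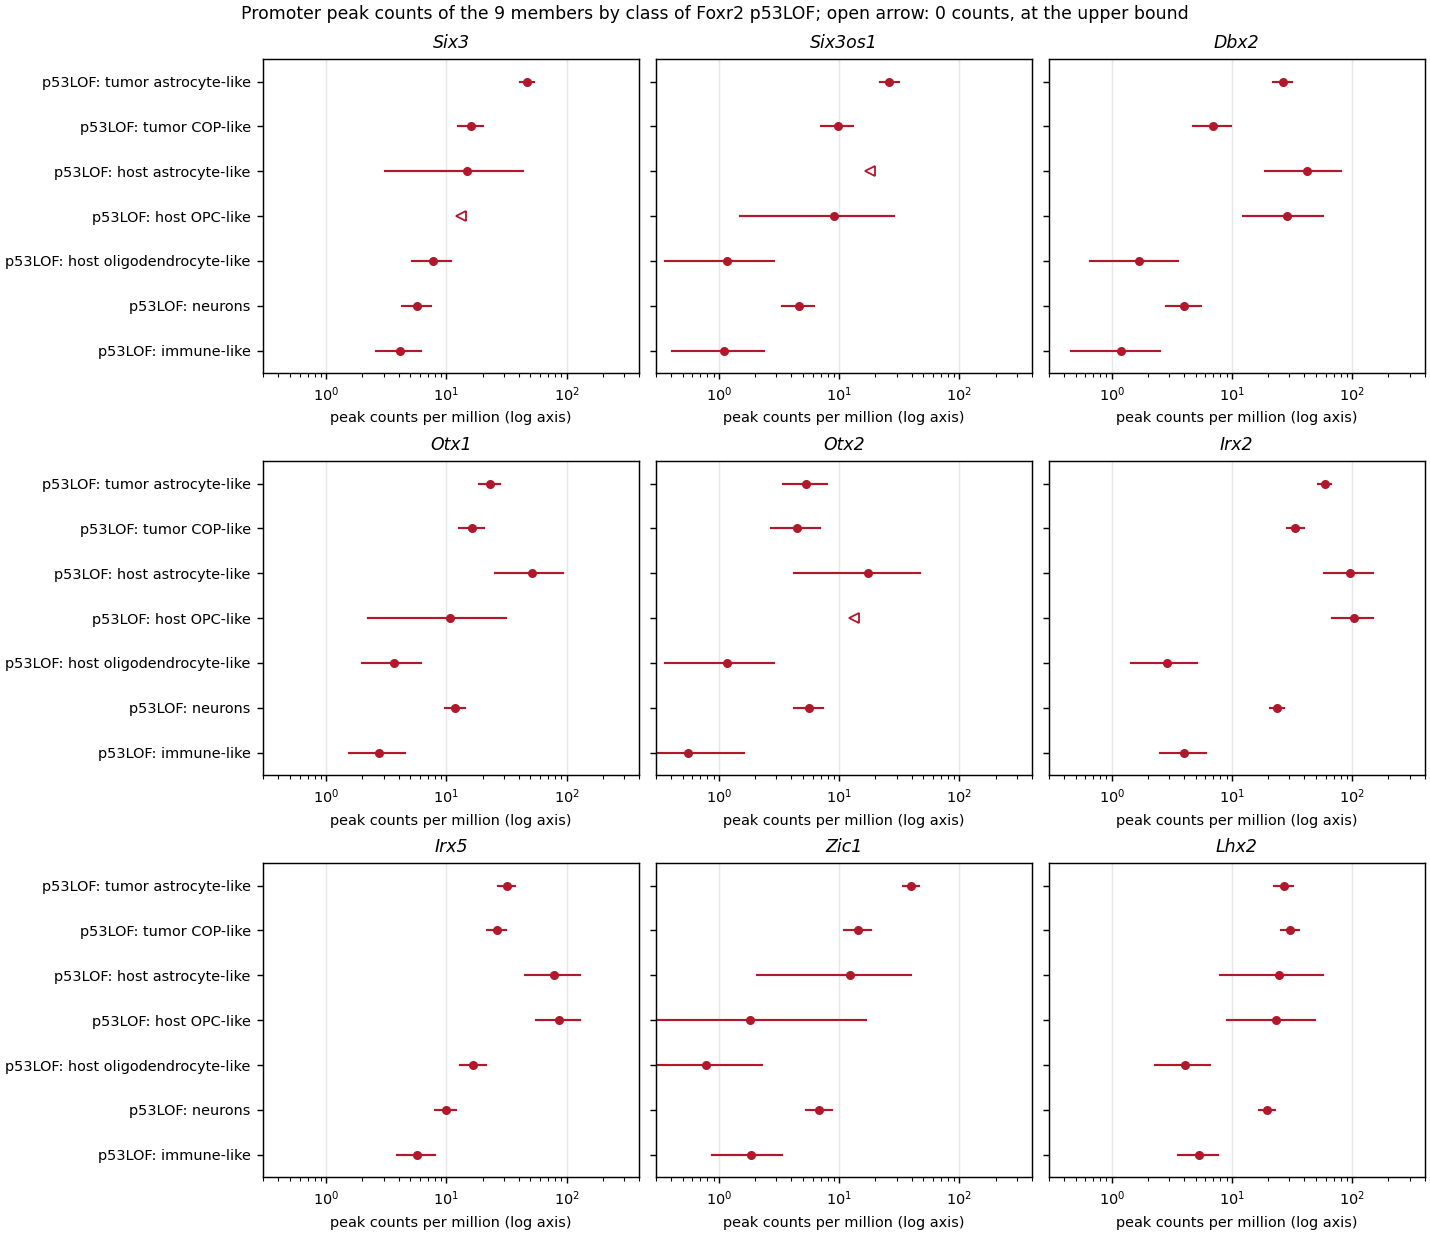
Promoter CPM of the 9 members in 7 classes of Foxr2 p53LOF, with 95% counting intervals. The Six3 and Zic1 promoters are highest in the astrocyte-like tumor nuclei (46.7 and 39.5), and the Irx2 and Irx5 promoters in the host astrocyte-like and OPC-like nuclei (78.9 to 102.5).

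Log2 ratios of promoter counts in tumor over host glia were 4.28 for Zic1 (3.14 to 5.74), 3.48 for Six3os1, 2.19 for Lhx2, 2.07 for Six3 (1.54 to 2.64), 1.77 for Irx2, 1.67 for Dbx2 and 1.63 for Otx1 (1.04 to 2.27), and Irx5 was within 2-fold at 0.26. These were 7 higher and 0 lower of 8 counted, beside 18.6% and 4.38% of 16568 promoters. When host glia included all glia-like nuclei without an Hmga2 UMI 2 were higher, and the share of all promoters was not computed there. The RNA of Lhx2 and Otx1, under 5 CPM in both classes, was at log2 ratios of 1.13 (0.06 to 2.41) and -1.75 (-4.18 to 0.67, 4 UMIs against 4). Over neurons, Six3 (2.47), Dbx2 (2.08), Zic1 (1.98), Six3os1 (1.97) and Irx5 (1.55) were higher and none was lower of 9, beside 10.7% and 12.0% of 17373 promoters. Otx2 differed between promoter and RNA against neurons, with 4.97 promoter CPM in tumor glia, under the minimum of 5, and 5.60 in neurons, a log2 ratio of -0.17 (-0.78 to 0.43), where its RNA was at -4.23.

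Within tumor glia the promoters of Dbx2 (1.94), Six3 (1.54), Zic1 (1.46) and Six3os1 (1.44) were higher in astrocyte-like than in COP-like nuclei by 2-fold or more on the log2 scale, beside 3.14% of 16817 promoters, and none was lower of 9, beside 4.52%. Irx2, whose RNA differed by 1.34, was within 2-fold at its promoter, with 59.1 and 33.7 promoter CPM. Against host astrocyte-like nuclei, Six3 (1.66, 0.09 to 3.95) and Zic1 (1.68, -0.02 to 4.28) were higher and Otx1 (-1.17), Otx2 (-1.71, -3.33 to 0.45) and Irx5 (-1.32, -2.07 to -0.47) lower of 9, beside 4.57% and 10.1% of 16354 promoters. The Six3os1 promoter had 238 counts in the tumor nuclei and 0 in these host nuclei, which at this depth was no call, and Irx2 lay within 2-fold at 59.1 and 96.2 promoter CPM. The Dbx2 promoter held 26.6 promoter CPM in the tumor and 41.9 in these host nuclei (log2 ratio -0.66, -1.65 to 0.55), where its RNA was at 1.40. Host glia and neurons differed at promoters as well. In Foxr2 p53LOF, host glia over neurons gave 1.28 for Irx5 (0.87 to 1.70) and -1.60 for Otx2, -1.65 for Lhx2 and -2.30 for Zic1, 1 higher and 3 lower of 8 counted, beside 7.07% and 21.9% of 16688 promoters. In Foxr2 alone the same ratio was 1.81 for Dbx2 (1.25 to 2.39) and -1.98 for Six3 (-2.29 to -1.69), 1 higher and 1 lower of 4 counted, beside 16.8% and 18.1% of 16341 promoters. The Six3 promoter of that library was thus more open in neurons than in host glia, as its RNA was. In Foxr2 alone, host astrocyte-like nuclei over neurons gave 4.0 for Dbx2 (3.37 to 4.63), 2.95 for Otx1 and 2.48 for Lhx2, and Six3 was within 2-fold at -0.51, with 22.1 and 31.4 promoter CPM. That made 3 higher and 0 lower of 4 counted, beside 15.9% and 15.1% of 16418 promoters.

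Lists of other regional transcription factors, 18 for the telencephalon, 11 for the diencephalon, 16 for the midbrain and 16 for the hindbrain and spinal cord, placed the members among genes of known territory. The neurons of the libraries stood apart in these lists. By the same cutoffs of 5 CPM and 2-fold, 10 of 11 telencephalon genes counted in Foxr2 p53LOF neurons were lower than in Foxr2 alone, among them Meis2, a factor of striatal and other neurons (log2 ratio -3.75, -3.83 to -3.67), and Bcl11b (-3.52, -3.66 to -3.38), and 1, Nkx2-1, was higher, beside 20.6% of all genes lower and 14.6% higher. All 5 diencephalon genes counted were higher (Sim1 at 8.93) and 6 of 7 midbrain genes were higher (Pax3 at least 188-fold, Gata3 9.40), none being lower. The medians of the diencephalon and midbrain lists were 6.73 and 7.11, beside -0.06 for all genes. The neurons sampled with the tumor thus carried diencephalon and midbrain factors and those of Foxr2 alone telencephalon factors.

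Host glia differed in part in the same way. All 9 telencephalon genes counted were lower in pooled host glia of Foxr2 p53LOF, beside 25.7% of all genes, with Tbr1 at least 19.98-fold lower, and a list median of -3.30 beside -0.20 for all genes. The pooled classes differed in make-up, with 67 of 1598 and 428 of 3617 nuclei astrocyte-like. They also differed in neuronal RNA. In Foxr2 p53LOF and Foxr2 alone, neuron markers summed to 223 and 704 CPM in host oligodendrocyte-like nuclei and 1160 and 2165 CPM in astrocyte-like ones. OPC-like nuclei had 3534 and 3472 CPM, and immune-like nuclei 270 and 706 CPM. The part of neuronal RNA in these list genes was not tested. Between astrocyte-like host nuclei 4 of 11 telencephalon genes were lower, beside 14.7% of all genes, and 7 were scored within 2-fold. Between OPC-like host nuclei 2 of 4 were lower, beside 18.1%, and 2 were scored within 2-fold. Lower counts were raised to 3, or 13.1 and 9.95 CPM in these classes of Foxr2 p53LOF. A gene absent there could thus be scored within 2-fold, so the genes so scored cannot be read as alike. In the pooled host glia, Pax3, a dorsal midbrain factor, was higher at 4.96 (2.34 to 10.32, 23 UMIs against 1) and En2 at 1.05, while Nr4a2 was lower at -1.75, or 2 higher and 1 lower of 3 midbrain genes counted, beside 10.1% and 25.7% of all genes. Neither Pax3 nor En2 was called higher at a 10 CPM minimum or with host glia without GFP. At resolution 1.0 or after thinning, 1 list gene was called higher, and more were with the wide host definition or no minimum. No gene of the diencephalon or hindbrain list reached 5 CPM in host glia. Of the members lower in pooled host glia of this library, Lhx2 was still at 21.8 CPM (7.08 to 50.9, 5 UMIs) and Otx1 at 8.72 CPM (2 UMIs) in host astrocyte-like nuclei.

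**Figure D5:**
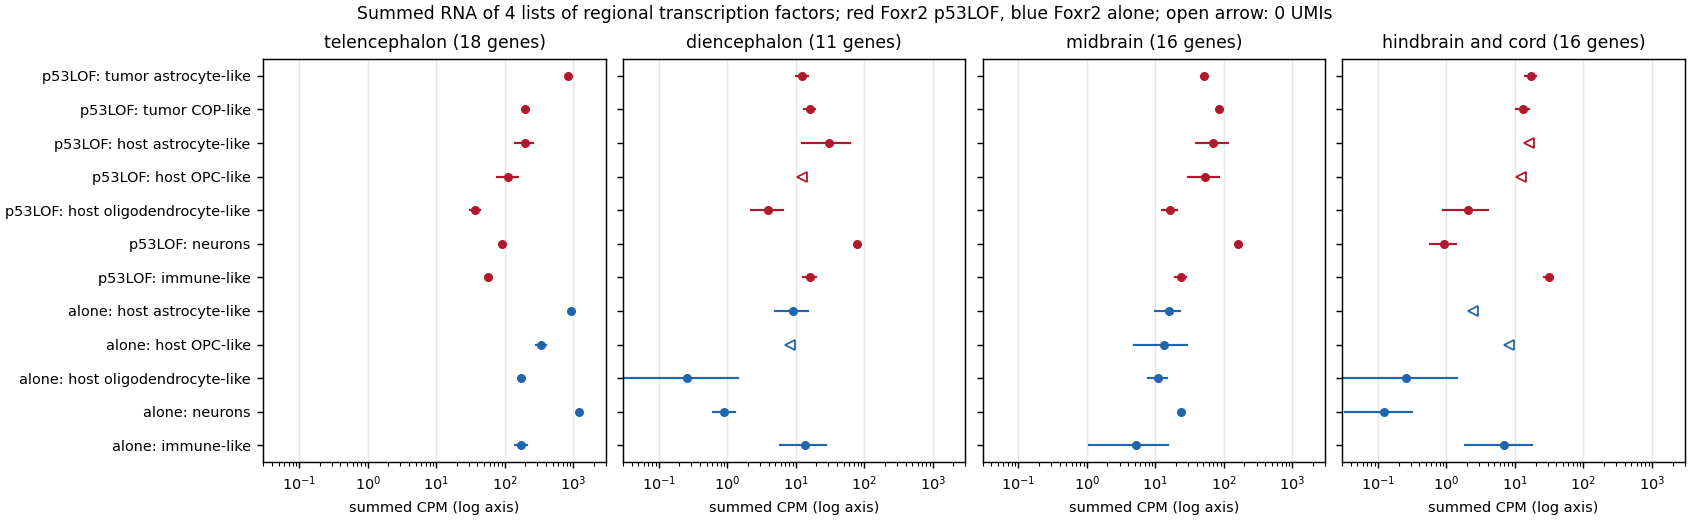
Summed CPM of the 4 region lists in classes of both libraries. The telencephalon sum is 1204.4 CPM in neurons of Foxr2 alone and 91.0 CPM in neurons of Foxr2 p53LOF, and most of the 833.0 CPM in astrocyte-like tumor nuclei is Meis2 (741.7 CPM).

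Tumor glia were then set beside host glia of both libraries. Over host astrocyte-like nuclei of Foxr2 alone, the astrocyte-like tumor nuclei were lower for 9 of 12 telencephalon genes counted and higher for 1, beside 31.0% and 23.1% of all genes. Among the lower genes were Emx2 (log2 ratio -6.30), Tbr1 (-5.66) and Dlx6 (at least 34.5-fold). Neuron markers were also lower, summing to 567 CPM in these tumor nuclei and 2165 CPM in these host nuclei. The part of neuronal RNA in the ratios was not tested. Meis2, at 0.32 (0.22 to 0.42), and Bcl11b, at -0.59, lay within 2-fold. Relative to host glia of their own library, tumor glia were higher for all 3 telencephalon genes counted, among them Meis2 (3.55, 3.33 to 3.78) and Bcl11b (2.69), beside 26.9% of all genes. Those host glia were mostly oligodendrocyte-like (1444 of 1598). Between astrocyte-like tumor and host nuclei 2 of 4 telencephalon genes were higher and 1 lower, beside 13.7% and 19.7% of all genes. Between COP-like tumor and OPC-like host nuclei 1 of 3 was higher and none lower, beside 18.4% and 16.0%.

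Factors of more posterior territories were also read in tumor glia. Lmx1a, a factor of the midbrain floor plate and roof plate, had 449 UMIs in tumor glia and 2 in host glia (log2 ratio 6.06, 4.2 to 9.11), and lay within 2-fold of neurons at 0.50. Hoxa3, a hindbrain factor, had 101 UMIs in tumor glia, 2 in host glia and 1 in neurons (log2 ratios 3.90, 2.01 to 6.97, and 7.44, 4.93 to 12.75; 3.32 and 5.85 with a count of 3 on the smaller side). En1 and En2 were within 2-fold of host glia (0.97 and -0.06) and Pax3 was lower (7 against 23 UMIs, -3.47). Pax3 was not called lower at a 10 CPM minimum, with host glia without GFP, at resolution 1.0, after thinning or with the wide host definition. With Nr4a2 higher at 2.92, that made 2 higher and 1 lower of 5 midbrain genes and 1 higher of 1 hindbrain gene counted, beside 26.9% and 12.2% of all genes. Between astrocyte-like tumor and host nuclei none of 4 midbrain genes was higher and 1, Pax3, was lower, and neither of 2 hindbrain genes was called, beside 13.7% and 19.7%. Host counts under 3 were raised to 3 there, or 13.1 CPM. Between COP-like tumor and OPC-like host nuclei 2 of 5 midbrain genes were higher and 1 lower, beside 18.4% and 16.0%. Over host astrocyte-like nuclei of Foxr2 alone, 2 of 3 midbrain and 2 of 2 hindbrain genes were higher and 0 lower, beside 23.1% and 31.0%. Against neurons of the library, all 5 diencephalon genes counted were lower (Shox2 -6.15, Sim1 -4.77), as were 5 of 8 midbrain genes (Lmx1b -6.20, Pax3 -5.17), and none of these was higher, beside 18.9% of all genes lower and 29.2% higher. Of 4 telencephalon genes counted over neurons, 3 were higher and 1 lower.

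Relatives of the members followed them unevenly. Zic4, which neighbours Zic1 on chromosome 9, was higher in tumor than in host glia at 4.22 (3.09 to 5.68), and Zic5 and Zic2 at 2.80 and 2.22, all 3 relatives counted, beside 26.9% of all genes. Between astrocyte-like tumor and host nuclei Zic4 was higher, Zic5 (0.26) and Zic2 (0.93) lay within 2-fold, and Irx3 and Otx2os1, each with 4 host UMIs, were among the lower genes. That was 1 higher and 3 lower of 6 relatives counted, with a median of -1.73, beside 13.7% of all genes higher and 19.7% lower and a median of 0. In neurons over Foxr2 alone all 5 relatives counted were higher: Lhx1 (8.32), Lhx9 (7.25), Lhx5 (6.47), Otx2os1, the antisense RNA of Otx2 (4.72), and Zic4 (3.31), beside 14.6% of all genes. Tumor glia were lower than these neurons for Otx2os1 (-5.25), Lhx1 (-5.16), Lhx5 and Lhx9 and higher for Zic5 (2.70), Zic4 (1.96) and Zic2 (1.91), beside 18.9% and 29.2% of all genes.

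Over 29 groups of nuclei (clusters within a library), the genes most like each member were found by Pearson correlation of log2(CPM + 1), given as a description since the groups share libraries and depth. Zic1 was closest to its neighbour Zic4 (0.94), and Six3 to Prmt5 and Six3os1 (0.70 each). Six3os1 was closest to Cd109 (0.86), Dbx2 to Fgfr3 (0.89) and Ednrb (0.86), which are receptors carried by astrocytes, and Otx1 to Nat8f5 (0.91). Otx2 was closest to A2m (0.81) with Otx2os1 at 0.79, Irx2 to Nudt12 (0.80), Irx5 to Pax3 (0.79) and Lhx2 to Nat8 (0.76).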

How the data were processed

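Nuclei of 2 libraries were analysed from the deposited counts: whole-number UMI counts per gene and ATAC counts per peak, which per the labels and the study's methods the authors made with Cell Ranger ARC 2.0.0 on mm10 with vector sequences added, calling peaks in each library. Nuclei with at least 400 genes, 400 peak fragments and at most 5% mitochondrial UMIs were kept (8712 and 8856), and Scrublet doublets removed (3.43% and 5.97%), leaving 8413 and 8327. The study's doublet caller and further ATAC filters were not applied. Counts were log-normalized and clustered with scanpy 1.11.5 (2000 variable genes, with 84 genes of the lists held out, 30 components, 20 neighbours, Leiden resolution 0.5), and clusters were named X-like from markers. Summed UMIs per class were divided by the class total (CPM). Levels have exact Poisson intervals, shares Clopper-Pearson intervals, and ratios conditional binomial intervals (scipy 1.17.1), all at 95%. Promoter counts were mostly even, since a fragment has 2 ends, so intervals used counts divided by 2. A gene was counted at 5 CPM in either class and more than 3 counts in at least one, with a count of 3 in place of lower counts on the smaller side, and called at 2-fold. Folds given as "at least" rest on that count of 3 and are not confidence limits. On simulated counts for tumor over host glia (11745 genes, 200 changed 4-fold) 100% of changed genes were recovered in each direction and 0.0433% of unchanged genes called. The simulated counts had Poisson error only, with no spread between nuclei, at the totals of these pooled classes. These rates therefore do not apply to calls in the smaller host astrocyte-like and OPC-like classes, which were not simulated. The members and lists were chosen with earlier results of these data known, and all members are described. Some genes of the lists of regional factors and relatives enter the counts and sums but are not reported here by name. The 5% limit for host clusters and the splitting of 2 clusters of mixed type were set after the data were seen. Alternatives were other Hmga2, GFP and nucleus limits, doublets kept, resolution 1.0, thinning to 1000 UMIs, other CPM minimums and promoter windows.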

Additional observations from a re-analysis of the deposited data

Results flagged for a closer look

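Some clusters could not be named from the markers and entered the comparisons only in an alternative that added nuclei at the Hmga2 cutoff to tumor glia, those of the vascular cluster 19 left out. They held members above the immune-like level of Foxr2 p53LOF. Cluster 14 (298 nuclei, leading genes Pomc and Oacyl) carried 51.0 CPM of Six3 (35.3 to 71.2), 39.0 CPM of Six3os1, 14.99 CPM of Irx2, 20.98 CPM of Zic1 and 7.49 CPM of Lhx2 (2.43 to 17.5), at a median of 1448.5 UMIs per nucleus, and 74.2% of its nuclei had a GFP UMI. Cluster 23 (134 nuclei, leading genes Fcrls and Capn3, with markers of immune cells and oligodendrocytes) carried 16.2 CPM of Six3os1 (9.27 to 26.3). Cluster 19 (75 nuclei in Foxr2 p53LOF, with endothelial, mural and fibroblast markers) carried 132 CPM of Zic1 (91.7 to 183), above the 28.9 CPM of tumor glia.

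Lhx2 was lower in host glia than in neurons of Foxr2 p53LOF, at a log2 ratio of -1.91 (-3.15 to -0.90), and higher in host glia than in neurons of Foxr2 alone, at 2.83 (2.32 to 3.36). Of the pooled host glia, 67 of 1598 nuclei in Foxr2 p53LOF and 428 of 3617 in Foxr2 alone were astrocyte-like. In the astrocyte-like host nuclei alone, Lhx2 lay above neurons in both libraries, though in Foxr2 p53LOF the intervals overlapped. The part of make-up in the pooled ratios was not tested. With 1 library of each genotype, the difference between these ratios was not tested.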

How the results depend on the processing

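Of 356 comparisons of member RNA ratios with an alternative, 322 stayed inside their counting interval, 31 moved outside it and 3, called at 2-fold, changed direction. Of 234 promoter ratios, 222, 12 and 0 did so. A change of sign in a ratio not called at 2-fold was not counted as a change of direction. The 3 reversals were of Six3 in host glia between libraries (-1.12), which became 0.21 with host glia defined by 0 Hmga2 and 0 GFP UMIs, 0.60 after thinning and 1.33 with host glia defined by 0 Hmga2 UMIs in any glia-like cluster, an alternative added after the data were seen. Members higher in host glia between libraries went from 2 to 1 at resolution 1.0 and to 6 with the wide host definition. Members lower in tumor than in host glia went from 1 to 0 at resolution 1.0. Members lower in tumor glia than in neurons went from 1 to 0 with doublets kept and to 2 after thinning. Promoters higher in tumor than in host glia went from 7 to 2 with the wide host definition. Region-list genes moved too. Those higher in host glia between libraries went from 2 to 0 at a 10 CPM minimum or without GFP, 1 at resolution 1.0 or thinned, 6 with the wide definition and 32 with no minimum and 0.5 counts added. At 10 CPM and with no minimum, those lower went from 10 to 4 and 25, and those higher in neurons from 17 to 11 and 48. With no minimum, those lower in neurons went from 10 to 20, higher in tumor over host glia from 9 to 30, higher in tumor glia over neurons from 7 to 25, lower from 15 to 36, and lower in tumor than in host glia from 1 to 31; the last was 0 at 10 CPM, without GFP, at resolution 1.0, thinned and with the wide definition. The share of all genes or promoters past the cutoffs was not computed under any alternative, so these counts have no background beside them. The cause was not tested.

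No paired analysis was possible because no result comes from a test and counts of 1 library per genotype were analysed; leaving out a replicate was not possible for the same reason. Depth limits the host astrocyte-like and OPC-like classes of Foxr2 p53LOF, with 229359 and 301612 UMIs, in which 3 UMIs correspond to 13.1 and 9.95 CPM.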
